A study of Mus musculus with 12 samples.

Results

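The potassium channel genes were taken as every gene of the table of coding sequence (CDS) counts whose symbol begins with Kcn, which gave 94 of 20504 genes. They cover the pore-forming subunits of the voltage-gated (Kcna, Kcnb, Kcnc, Kcnd, Kcnh, Kcnq), calcium- and sodium-activated (Kcnma, Kcnn, Kcnt), inwardly rectifying (Kcnj) and tandem-pore leak (Kcnk) channels, the electrically silent subunits (Kcnf, Kcng, Kcns, Kcnv), and the auxiliary subunits (Kcnab, Kcnip, Kcne, Kcnmb). Kcnu1 was counted with Kcnt, and Kcnrg, which encodes a regulator rather than a subunit, was kept apart. All 94 symbols had a position in RefSeq on the mm10 build.

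The libraries came from 6 adult Camk2a-RiboTag mice, bred by crossing heterozygous Camk2a-Cre mice with mice homozygous for the RiboTag allele of Rpl22. Cre under the Camk2a promoter acts mainly in excitatory forebrain neurons, so that in these cells ribosomes carry an HA-tagged Rpl22, while other cells keep untagged ribosomes. Mice C and D were dosed by gavage with 100 mg/kg of AZD-8055, which inhibits the mTOR kinase, and their right frontal lobe was taken 1 h later. Mice A and B are labelled untreated, and the methods give them vehicle by gavage. Each of these 4 mice yielded 1 RNA-Seq library and 1 ligation-free ribosome footprint library from the same whole lysate. Mice E and F, also labelled untreated, yielded an RNA-Seq library of the total RNA (input) and another of the polysomal RNA pulled down through the HA tag (IP). There were thus 2 mice per condition, each counted as a replicate.

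Potassium channels let potassium leave the cell and so set the resting potential, repolarise the action potential and limit repetitive firing. Voltage-gated members open on depolarisation, the calcium- and sodium-activated members open when those ions build up inside the cell, and inward rectifiers and leak channels act near rest. Silent subunits form no channel alone and join Kcnb subunits, while auxiliary subunits alter gating or surface delivery. In cortex these genes are spread over cell types: Kcnj10 and Kcnj16 are known as channels of astrocytes and other glia, Kcnj8 of pericytes, Kcnj13 of choroid plexus and Kcnc1 of fast-spiking interneurons.

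CDS counts summed to between 3503873 and 15585831 per library, and the Kcn genes took between 0.295% and 0.422% of them. Of the excitatory neuron markers, 9 of 10 were higher in IP than input in both mice, with a summed level of 61562 to 64837 normalised counts in the inputs and 177124 to 181004 in the IPs. All 10 inhibitory neuron, 10 astrocyte, 10 oligodendrocyte, 7 microglial and 6 endothelial markers were lower in both mice, and none of these was at 0 in an IP library. A choroid plexus signal stood out in mouse B, with summed markers of 7135 normalised counts in RNA and 8681 in footprints against 182 to 536 and 247 to 788 in mice A, C and D. Kcnj13 and Kcne2 belong to that list of markers. Rpl22 itself had an enrichment of 0.94 and 0.81 in the IPs of mice E and F over exon counts (edgeR adjusted p = 0.0016). Camk2a had 0.45 and 0.32 over exon counts (edgeR adjusted p = 0.11) and -0.36 and -0.75 over CDS counts (log2).

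Translation efficiency (TE) was the log2 ratio of footprint to RNA counts over the coding sequence, after scaling each library by its size factor. A ratio was kept where each kind of library held at least 75 counts over mice A and B together. By this limit 60 Kcn genes had a TE, and the median of all 10882 genes with a TE was 0.02. Of the 34 Kcn genes below the limit, 26 fell short in both kinds of library, 6 in footprints alone and 2 in RNA alone, and 14 had fewer than 10 counts in each of the 4 libraries. Among the 34 were Kcna7, Kcna10, Kcnh6, Kcnh8, Kcnj1, Kcnj5, Kcnj8, Kcnj13, Kcnj14, Kcnj15, Kcnk5, Kcnk6, Kcnk7, Kcnk10, Kcnk15, Kcnk16, Kcnk18, Kcnn1, Kcnn4, Kcnq1, Kcng3, Kcng4, Kcns3, Kcnv2, Kcne1, Kcne1l, Kcne2, Kcne3, Kcne4, Kcnmb1, Kcnmb2, Kcnmb3 and Kcnrg, and the 34 had 0 to 180 RNA counts and 0 to 74 footprint counts in any of the 4 vehicle libraries. All 5 Kcne genes, auxiliary subunits known best from heart and epithelia, were among them.

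Kcng3, a silent subunit, missed the limit in an unusual way. It had 6 and 3 RNA counts but 74 and 47 footprint counts in mice A and B. Kcnn1, which encodes a small-conductance calcium-activated channel, had the opposite balance, with 180 and 169 RNA counts and 47 and 15 footprint counts. It missed the limit by its footprints and still entered the test of footprints against RNA, which kept genes averaging at least 37 counts per library. There its footprint level relative to RNA was lower by 1.89 ± 0.23 (log2, SE), with an adjusted p of 5.8e-06 (edgeR quasi-likelihood test, Benjamini-Hochberg adjustment over all genes, used for every adjusted p below).

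The Kcn genes spanned most of the range of translation efficiency seen in this tissue. Their median log2 TE was 0.25 (0.26 in mouse A and 0.23 in mouse B), 36 of the 60 lay above the median of all genes, and their SD between genes was 1.26 against 0.99 for all genes. In the test, 15 of 65 Kcn genes (23.1%) were higher in footprints than RNA by over 2-fold at an adjusted p below 0.05, where 13.3% of all 11891 genes tested were, and 9 (13.8%) were lower, where 17.5% of all genes were. The values repeated between the mice: the median difference between mouse A and mouse B was 0.17, and 5 of the 60 genes differed by more than 0.5, the most by 0.70 for Kcna5.

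**Figure D1:**
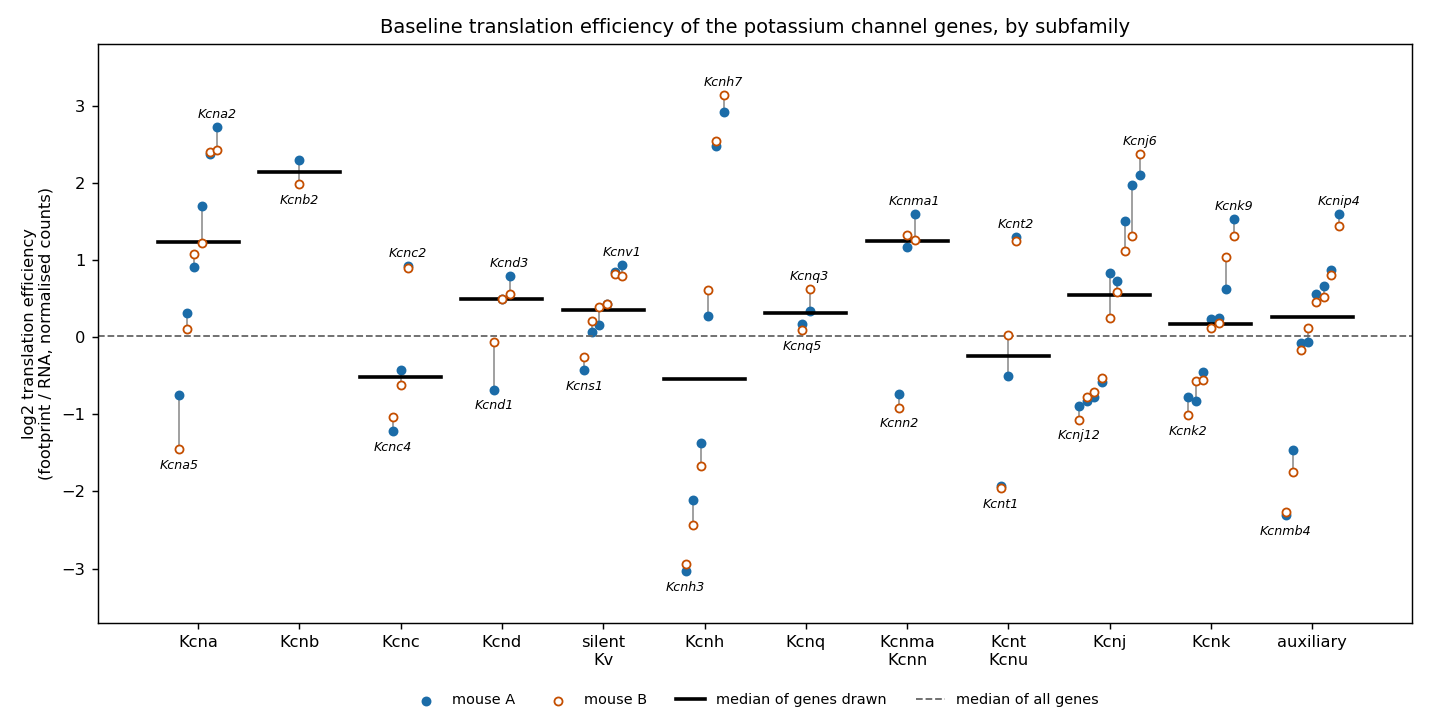
Log2 translation efficiency (footprint over RNA, normalised CDS counts) of 57 of the 60 Kcn genes over the count limit, by subfamily, with mouse A as filled and mouse B as open points joined by a line. Bars are medians of the genes drawn, the dashed line is the median of all genes at 0.02, and the lowest and highest gene drawn in each subfamily are named; Kcnh genes lie from -2.99 to 3.02, the range of the whole family.

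The ether-a-go-go family Kcnh held both ends of the range. Kcnh3, on chromosome 15 from 99224517 to 99242818, encodes a voltage-gated channel prominent in forebrain. It had 3261 and 3419 RNA counts in mice A and B and only 360 and 195 footprint counts. Its log2 TE was -3.03 and -2.94, or -2.99 ± 0.06 (SD, n = 2), and only 0.58% of genes with a TE lay below it. Kcnh7, on chromosome 2 from 62693410 to 63184287, encodes an ERG channel of the same family. It had 156 and 132 RNA counts and 1063 and 508 footprint counts, giving a log2 TE of 2.92 and 3.13, above 99.8% of genes.

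The same channel family therefore differed within itself by 5.95 in mouse A and 6.08 in mouse B on the log2 scale, a 64.5-fold difference in footprints per RNA count between Kcnh7 and Kcnh3. The remaining Kcnh genes fell on both sides and none of the 6 lay within 0.4 of the median of all genes. Kcnh4 (-2.11 and -2.43) and Kcnh2, the ERG channel known from cardiac repolarisation (-1.37 and -1.67), were low. Kcnh5 (2.48 and 2.54) was high, and Kcnh1 was 0.27 and 0.62. Tested against RNA, Kcnh3 was lower by 2.95 ± 0.08 (SE; adjusted p = 7.4e-12), Kcnh4 by 2.25 ± 0.16 (2.0e-08) and Kcnh2 by 1.46 ± 0.10 (2.0e-08), while Kcnh7 was higher by 3.06 ± 0.12 (4.9e-11) and Kcnh5 by 2.55 ± 0.11 (2.1e-10). The gene spans of Kcnh3 and Mcrs1 overlap in RefSeq, as do those of Kcnh7 and Gca, and 42 of the 94 Kcn genes overlap another gene. The counting of RNA reads by strand is not given in the sources used here.

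Kcna, the Shaker-type subunits that shape axonal firing threshold, had a median log2 TE of 1.23 over 6 genes, and 4 of the 6 were higher by over 2-fold in the test. Kcna2, a main axonal subunit, had 196 and 234 RNA counts against 1166 and 550 footprint counts, and a log2 TE of 2.72 and 2.42. Those RNA counts are over CDS. Over all exons Kcna2 had 4378 and 4628 in the same RNA libraries, and the part of the counted region in its TE was not tested. Kcna3 had 2.37 and 2.39, Kcna1, which assembles with Kcna2, had 1.70 and 1.22, and Kcna6 had 0.91 and 1.08. Kcna4 lay at 0.31 and 0.10. Kcna5 was the exception at -0.75 and -1.45, a difference between mice that rested on 97 and 29 footprint counts, and it did not pass the 2-fold limit (-0.93 ± 0.21 SE, adjusted p = 0.0013).

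The other voltage-gated subfamilies spread less. Kcnb2, a delayed rectifier, had a log2 TE of 2.29 and 1.98 and was higher in the test by 2.20 ± 0.18 (SE; adjusted p = 8.1e-08). Among the Kcnc genes, which support fast spiking, Kcnc4 was lower (-1.22 and -1.03), Kcnc1 was -0.42 and -0.62, and Kcnc2 was the highest (0.92 and 0.89). The A-type subunits of Kcnd had Kcnd3 highest (0.79 and 0.56) and Kcnd1 lowest (-0.68 and -0.07), and none of the 3 passed the 2-fold limit. For the M-current subunits, Kcnq5 had 0.17 and 0.10 and Kcnq3 had 0.34 and 0.62.

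Silent subunits with a TE ranged from -0.34 ± 0.12 for Kcns1 to 0.86 ± 0.09 for Kcnv1 (SD, n = 2). None of the 6 silent subunits with a TE passed the 2-fold limit. Kcns3, below the count limit for TE, was lower in the test by 1.59 ± 0.31 (SE; adjusted p = 0.00041) on 63 and 75 RNA counts and 23 and 7 footprint counts.

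Channels gated by internal ions split sharply as well. Kcnma1, the pore of the large-conductance BK channel, had 531 and 625 RNA counts against 1443 and 657 footprint counts, and a log2 TE of 1.59 and 1.26. Kcnmb4, the neuronal beta subunit of the same channel, had 819 and 776 RNA counts against 150 and 71 footprint counts, and a log2 TE of -2.30 and -2.26. Pore and beta subunit thus differed by 3.89 and 3.52, or 13.1-fold. RefSeq places the antisense transcripts Kcnmb4os1 and Kcnmb4os2 within the span of Kcnmb4, and without strand their RNA reads cannot be told apart from its own.

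The sodium-activated channels repeated this contrast. Kcnt1 had 2605 and 3080 RNA counts against 620 and 349 footprint counts, with a log2 TE of -1.92 and -1.95, and Kcnt2 had 1.30 and 1.25. The difference was 3.22 and 3.20, or 9.27-fold, far larger than the difference between mice. Kcnu1, a channel known from sperm, lay at -0.50 and 0.02 on 53 and 37 footprint counts. Among the small-conductance genes, Kcnn3 was 1.16 and 1.32 and Kcnn2 was -0.74 and -0.91.

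Among inward rectifiers, TE fell into a low and a high set. Kcnj6, a G-protein-gated subunit, had 116 and 107 RNA counts against 451 and 244 footprint counts, and a log2 TE of 2.11 and 2.38. Its partner subunits Kcnj3 (0.72 and 0.59) and Kcnj9 (-0.58 and -0.53) lay well below it. Kcnj2 was 1.97 and 1.32, whereas Kcnj12 (-0.89 and -1.07) and Kcnj4 (-0.83 and -0.77), of the same strong rectifier class, were low. Of the glial pair that forms 1 channel, Kcnj10 was 1.51 and 1.12 and Kcnj16 was 0.83 and 0.25. Kcnj11, the pore of the KATP channel, was -0.78 and -0.71. Kcnj13 had 11 and 59 RNA counts and 32 and 72 footprint counts, with mouse B the higher, as for the summed choroid plexus markers, whose part in its values was not tested. Its footprint excess of 1.39 ± 0.63 (SE) had an adjusted p of 0.060. With the mouse as a block the excess was 1.58 with an adjusted p of 8.6e-08. That fit leaves little in so few libraries from which to estimate the spread, so its small p carries little weight.

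Leak channels lay on both sides, and 3 of 7 tested had a fitted footprint level within 0.5 of RNA (log2). Kcnk9, an acid-sensitive leak channel, was the highest with 1.54 and 1.31, above its close relative Kcnk3 at -0.45 and -0.55. Kcnk4 was 0.62 and 1.03, and Kcnk13 was -0.83 and -0.57. Kcnk2, a mechanically gated leak channel, was lowest at -0.78 and -1.02, and Kcnk1 lay at 0.25 and 0.18. Auxiliary subunits ranged from Kcnmb4 to Kcnip4, a calcium-binding partner of Kcnd channels, at 1.59 and 1.45. Kcnip2, another partner of Kcnd, was -1.46 and -1.75, so that these related proteins differed 8.72-fold, with Kcnip1 (-0.08 and -0.17) and Kcnip3 (0.56 and 0.46) between them. The beta subunits of Kcna channels were closer together, with Kcnab3 at -0.07 and 0.11, Kcnab2 at 0.67 and 0.52 and Kcnab1 at 0.87 and 0.81.

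RiboTag enrichment was the log2 ratio of IP to input counts over all exons, kept where the inputs or the IPs held at least 75 counts over mice E and F. Of the 94 genes, 73 passed, and the other 21 had at most 40 counts in any of the 4 libraries. In bulk libraries of this kind, fewer cells of a type and less RNA per cell cannot be told apart. The Kcn median was -0.05 against 0.04 for 13738 genes. Of 71 Kcn genes tested, 3 (4.23%) were higher in IP by over 2-fold where 11.7% of all genes were, and 20 (28.2%) were lower where 21.8% were. Without the fold limit 18 Kcn genes (25.4%) were higher and 29 (40.8%) lower, where 33.7% and 35.7% of all genes were.

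The 3 enriched Kcn genes were Kcng2, Kcns1 and Kcnj4. Kcng2, a silent subunit, had 119 and 130 input and 270 and 291 IP exon counts in mice E and F, an enrichment of 1.73 and 1.87. Kcns1, also silent, had 329 and 395 input counts and 583 and 779 IP counts (1.38 and 1.69). Kcnj4, a strong inward rectifier of forebrain neurons, had 3024 and 3889 input counts and 4865 and 5474 IP counts (1.24 and 1.20). For all 3, both IPs lay above both inputs after scaling, which is no separate support since the test of these libraries picked them. Their tested changes were 1.68 ± 0.17, 1.42 ± 0.13 and 1.10 ± 0.08 (SE), with adjusted p of 0.00031, 0.00018 and 0.00012.

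A set of genes had enrichments near 1 and missed the 2-fold limit, which was applied to the tested change. They were Kcnip3 (1.08 and 1.03), Kcnf1, a silent subunit (1.10 and 0.94), Kcnmb4 (1.08 and 0.95), Kcnn1 (0.99 and 0.96), Kcnip4 (1.03 and 0.89), Kcnj9 (1.01 and 0.91) and Kcnh3 (0.91 and 0.93). The tested changes of Kcnip3, Kcnf1 and Kcnmb4 were 0.94, 0.91 and 0.91. All 7 genes of the set had adjusted p between 0.00031 and 0.0021. With the IP library of mouse F left out, 7 Kcn genes in place of 3 passed the 2-fold limit, as did 1637 of 13405 genes, the additional ones being Kcnj9, Kcnmb4, Kcnf1 and Kcnip3.

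**Figure D2:**
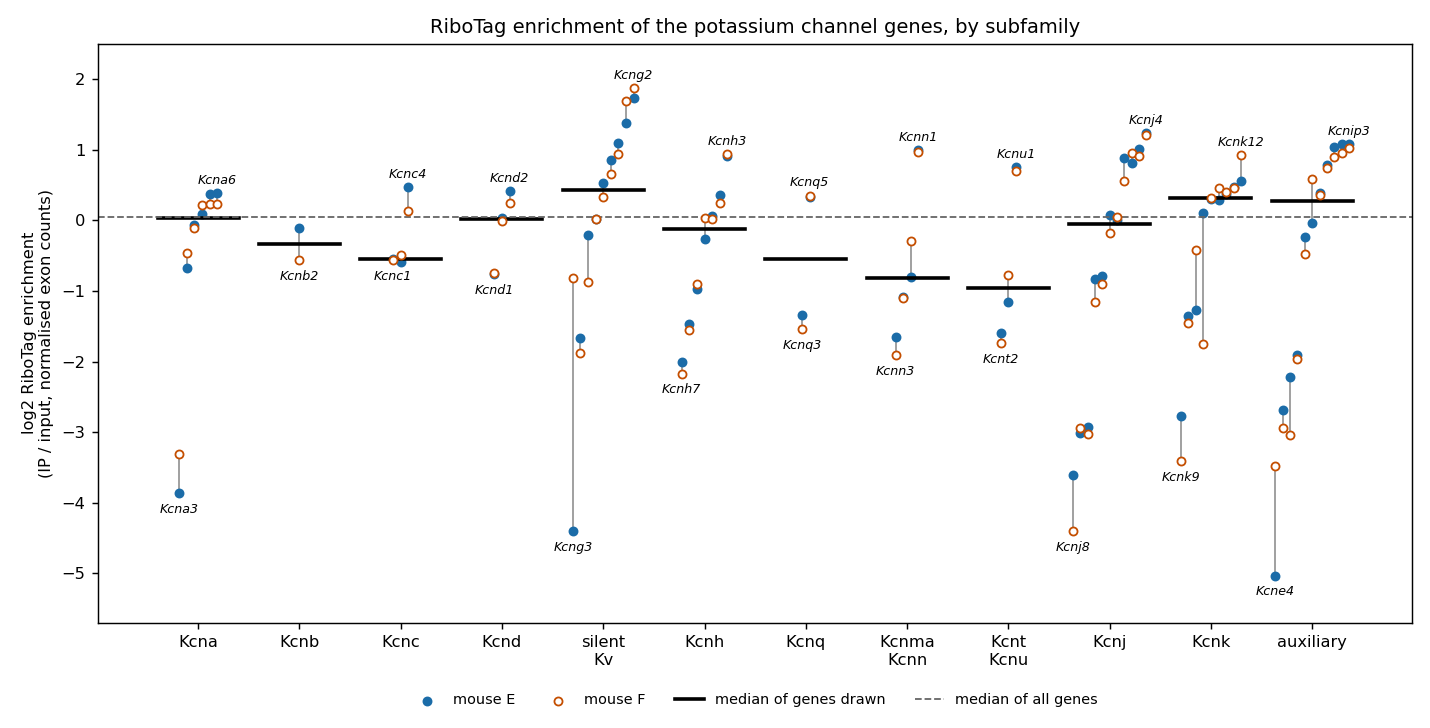
Log2 RiboTag enrichment (IP over input, normalised exon counts) of 69 of the 73 Kcn genes over the count limit, by subfamily, with mouse E as filled and mouse F as open points joined by a line. Bars are medians of the genes drawn and the dashed line is the median of all genes at 0.04; the silent subunits reach highest with Kcng2 at 1.80, and Kcng3 and Kcne4 at the bottom rest on 1 to 17 IP counts per mouse.

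Among the depleted genes were those known from non-neuronal cells. Kcnj10 had 5393 and 7874 input and 482 and 590 IP exon counts in mice E and F, and Kcnj16, its partner, had 664 and 961 against 56 and 76. Their enrichments of -2.93 and -3.03 for Kcnj10 and -3.02 and -2.95 for Kcnj16 were alike within the spread between mice. The summed astrocyte markers went from 103930 to 106686 normalised counts in the inputs to 18098 to 20582 in the IPs, and their part in these values was not tested. Kcnj8, the pericyte KATP pore, had 89 and 104 input counts and 5 and 3 IP counts, a ratio of 0.0646 with a 95% exact binomial interval of 0.0275 to 0.130 that covers counting error only. Kcne4 had 48 and 55 input counts and 1 and 3 IP counts, a ratio of 0.0605 with an interval of 0.0162 to 0.160.

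Neighbouring genes could differ. Kcnj9 and Kcnj10 lie next to each other on chromosome 1 (172320508 to 172329322 and 172341210 to 172374085), and their enrichments averaged 0.96 and -2.98. Kcna3 and Kcna2 lie side by side on chromosome 3 (107036162 to 107038129 and 107090883 to 107115005). Kcna3 had 192 and 227 input counts and 9 and 14 IP counts, an enrichment of -3.86 and -3.31, whereas Kcna2 was 0.09 and 0.22. That difference was seen over exons and was smaller over CDS counts, where Kcna3 was -3.26 and -2.79 and Kcna2 was -2.53 and -2.20.

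Depletion also reached genes of neuronal channels. Kcnk9 was -2.77 and -3.41 with 36 and 25 IP counts, and its tested change was -3.17 ± 0.26 (SE; adjusted p = 0.00014), while Kcnk3 was 0.48 and 0.46 and Kcnk12, a silent leak channel and the highest of the Kcnk genes, was 0.56 and 0.92. Kcnh7, the Kcn gene of highest TE, was -2.01 and -2.17 with 497 and 678 input counts against 84 and 92 in the IPs, and Kcnh4 was -1.47 and -1.55. Kcnip1, known from interneurons, was -1.90 and -1.96, Kcns3 -1.66 and -1.88, Kcnn3 -1.65 and -1.90, Kcnt2 -1.60 and -1.73, and Kcnq3 -1.34 and -1.54. Every one of these passed the test, as did Kcne1l, Kcnmb2, Kcnk10, Kcnma1, Kcnj3, Kcnt1 and Kcnh5. Over CDS counts Kcnh5 (-0.60) and Kcnj3 (-0.68) no longer passed the 2-fold limit. With the mouse as a block 19 Kcn genes in place of 20 were lower, where 22.0% of all genes were.

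Some partner subunits differed in the pull-down and others were close over exon counts. Kcnma1 (-1.08 and -1.10) and Kcnmb4 (1.08 and 0.95) differed by 2.16 and 2.05, and Kcnj6 (-0.79 and -0.90) was 1.80 and 1.81 below Kcnj9. Kcnd2 (0.41 and 0.24) and Kcnip2 (0.39 and 0.37) differed by 0.02 and 0.12, and Kcnj10 and Kcnj16 by 0.08 at most. Over CDS counts these pairs were apart, with Kcnd2 at -0.48 and -1.02, Kcnip2 at 0.20 and 0.0030, Kcnj10 at -4.41 and -5.36 and Kcnj16 at -3.35 and -4.003. Mice E and F disagreed for Kcnk13, a leak channel known from microglia, which had 121 and 27 IP counts and enrichments of 0.10 and -1.75. Kcng3, with 2 and 17 IP counts, differed between the mice the most.

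Counting a different region of the transcript moved the pull-down values, among them those of Kcna, Kcnc and Kcnd. Counted over coding sequence in place of all exons, the Kcn median fell from -0.05 to -0.48, while the all-gene median went from 0.04 to 0.01. The Kcna median went from 0.03 to -1.68, Kcnc from -0.51 to -1.43 and Kcnd from 0.02 to -0.75. Over CDS counts, 25 of 66 Kcn genes were lower by over 2-fold where 26.1% of all genes were, and 7 were higher where 20.4% were.

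Kcna2 showed the shift at its largest. Its exon counts were 6831 and 10535 before and 4947 and 7502 after the pull-down in mice E and F, for the enrichments of 0.09 and 0.22. Its CDS counts were 527 and 735 before and 46 and 68 after, which gave -2.53 and -2.20. For each CDS count of Kcna2, the exon table held 13.8 counts in the inputs and 109 in the IPs. Kcna1 (-0.07 and -0.10 over exons, -2.32 and -1.90 over CDS), Kcnc2 (-0.59 and -0.49, -1.99 and -2.09) and Kcnj2 (0.01 and 0.04, -1.70 and -2.08) moved in the same direction. Over 12483 genes the inputs had a median of 1.47 and 1.496 exon counts per CDS count, and the IPs 1.84 and 1.98. The 67 Kcn genes had 1.91 and 2.04 against 2.63 and 2.93, and the ratio was higher in the IP in both mice for 78.7% of all genes and 80.6% of the Kcn genes. Kcnn2 and Kcnmb4 had fewer exon than CDS counts in the inputs (0.80 and 0.69 per CDS count).

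Kcnh1 moved too, from a mean of 0.30 to -1.03, and its exon counts per CDS count were 2.90 in the inputs and 10.1 in the IPs. Kcnh3 was 0.91 and 0.93 over exons and 1.30 and 1.40 over CDS, and passed the 2-fold limit in the latter with 1.22 and an adjusted p of 1.9e-05. Kcnh7 was -1.66 and -1.76 over CDS, Kcnt1 -1.13 and -0.79 and Kcnt2 -1.49 and -1.36. Kcnj10 went lower still, to -4.41 and -5.36 on 24 and 15 IP counts.

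Set side by side, Kcn genes of low translation efficiency tended to have the higher RiboTag enrichment. The 10 Kcn genes of lowest TE (-2.99 to -0.90) had a median enrichment of 0.31, with 7 of 10 above 0. The 10 of highest TE (1.43 to 3.02) had a median of -0.59, with 3 of 10 above 0. Over CDS counts the medians were 0.22 and -1.45. Across the 60 Kcn genes Spearman's rho was -0.33 over exon counts and -0.49 over CDS counts (Pearson's r -0.36 and -0.47), and across all genes with both values it was -0.03 over 10860 and -0.18 over 10861. These are descriptions across genes, which are not independent replicates: TE came from mice A and B, and enrichment came from mice E and F. TE also had a rho of 0.27 with gene span across the Kcn genes and of 0.19 across all genes. With exon over CDS counts of the RNA in mice A and B, it was 0.27 across the Kcn genes and 0.40 across all genes. The part of the counted region in TE was not tested. With Kcnj and Kcnk left out, rho of TE with enrichment over the other 44 genes was -0.19 over exon counts and -0.42 over CDS counts.

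**Figure D3:**
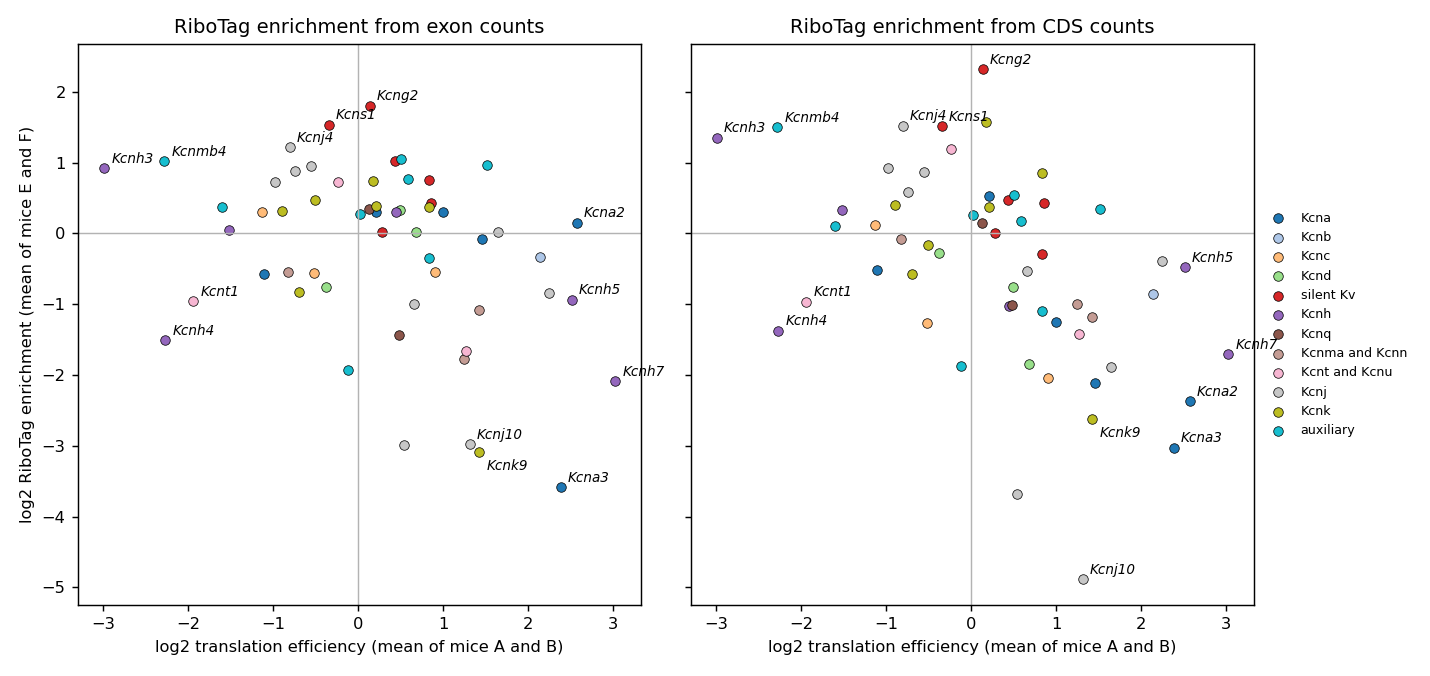
Log2 RiboTag enrichment (mean of mice E and F) against log2 translation efficiency (mean of mice A and B) for 57 of the 60 Kcn genes with a TE, coloured by subfamily, with enrichment from exon counts on the left and CDS counts on the right. Kcnh3 and Kcnmb4 sit at upper left and Kcnh7, Kcna3 and Kcnk9 at lower right in both, while Kcnh4 and Kcnt1 are low in both measures and Kcna2 drops from 0.15 to -2.37.

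Individual genes departed from this pattern. Kcnt1 (TE -1.94, enrichment -0.96) and Kcnh4 (-2.27 and -1.51) were low in both measures. Kcnip4 (1.52 and 0.96) was high in both over exons, and over CDS its enrichment was 0.46 and 0.24. Over all genes with both measures, 50.1% lay on opposite sides of the 2 medians, and of the Kcn genes 34 of 60 (56.7%) did, 19 of them with high TE and low enrichment.

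AZD-8055 changed no Kcn gene past the threshold in RNA, footprints or TE. In RNA 66 Kcn genes were tested and 0 were called, where 0.0575% of all genes were called higher and 0.0903% lower. In footprints 59 were tested and 0 called, where 0.0468% were higher and 0.982% lower. In TE 65 were tested and 0 called, where 0.00848% were higher by over 2-fold and 0.297% lower. DESeq2 also called 0 in each. At an unadjusted p below 0.05, edgeR gave 7 higher and 2 lower in RNA (3.90% and 4.34% of all genes), 11 higher and 0 lower in footprints (6.02% and 6.78%), and 4 higher and 0 lower in TE (2.69% and 4.06%). Ribosomal protein genes, whose translation is known to depend on mTOR, did change in the same libraries: TE of 31 of 76 ribosomal protein genes was lower by over 2-fold, with a median change of -0.90.

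The fitted TE changes of the Kcn genes ranged from -0.45 for Kcnk13 to 0.63 for Kcnk4, and 61 of 65 were within 0.5 of 0. Kcnd3, an A-type subunit, had the smallest p. Its log2 TE was 0.79 and 0.56 in the vehicle mice and 1.11 and 1.39 in the AZD-8055 mice. Its RNA was 157 and 168 normalised counts in vehicle against 137 and 120 after the drug, and its footprints 272 and 249 against 295 and 313. The fitted TE change was 0.57 ± 0.18 (SE; adjusted p = 0.33). Kcnh2 went from -1.37 and -1.67 to -1.06 and -1.08 (0.44 ± 0.14, adjusted p = 0.41), and Kcnj9 from -0.58 and -0.53 to -0.26 and -0.07 (0.40 ± 0.13, adjusted p = 0.43).

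In the other direction, Kcna2 went from 2.72 and 2.42 to 2.34 and 2.27, with a fitted TE change of -0.27 ± 0.14 (SE; adjusted p = 0.76). Kcnip4 (-0.20) and Kcnab1 (-0.14) followed, with adjusted p of 0.85 each. None of these differences was past the threshold, and 2 mice a group limit what could be detected.

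**Figure D4:**
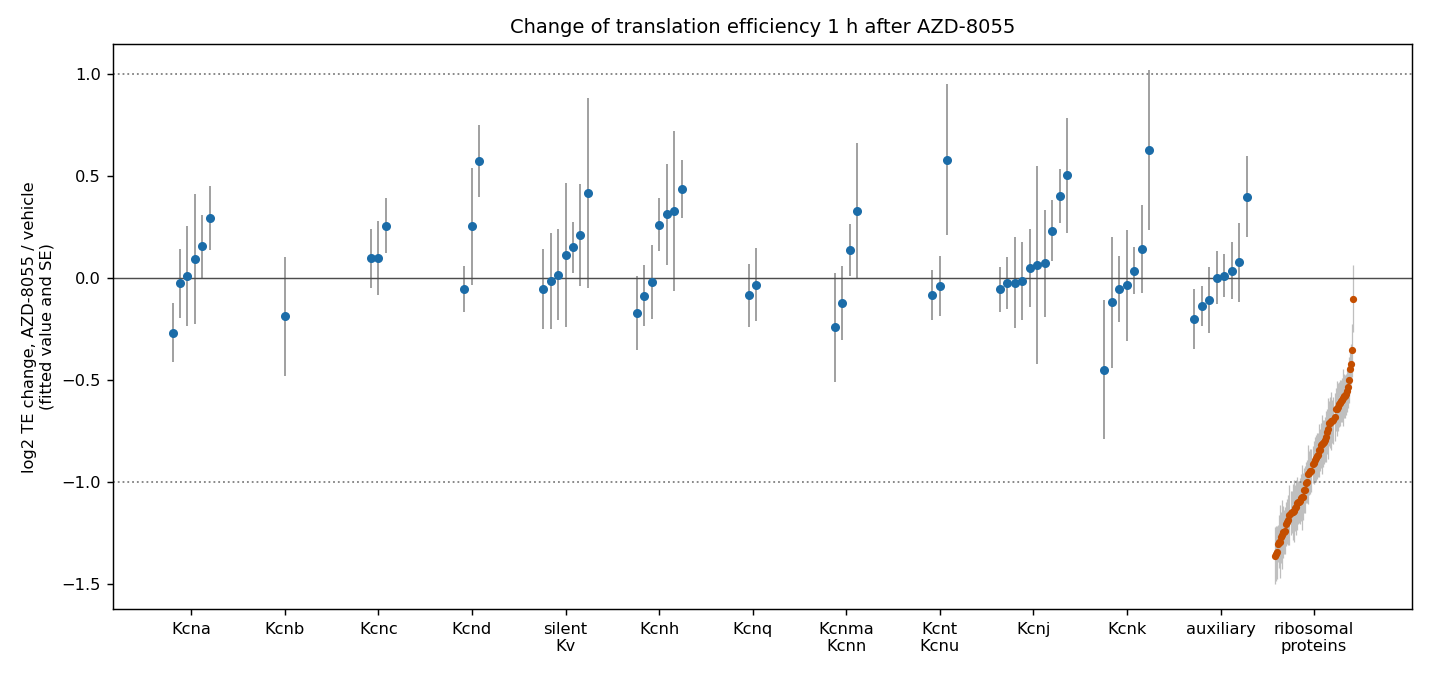
Fitted log2 TE change 1 h after AZD-8055 (AZD-8055 over vehicle, edgeR, bars are standard errors) of 61 of the 65 Kcn genes by subfamily and of 76 ribosomal protein genes, with dotted lines at 2-fold. Kcn genes lie between -0.45 and 0.63, and the ribosomal protein genes between -1.36 and -0.10.

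Footprints of Kcn genes lay slightly above those of other genes after the drug. Of the 59 tested, 44 (74.6%) had a fitted footprint change above 0 with a median of 0.10, against 50.2% and 0.00 for all genes. The Kcn median exceeded the all-gene median by 0.13 to 0.14 in each of the 4 comparisons of an AZD-8055 mouse with a vehicle mouse, and 44 of 60 genes lay above it in each. The 4 comparisons share libraries. Genes with symbols beginning Cacn, calcium channel pore and auxiliary subunits among them, behaved alike, with 18 of 21 above 0 and a median of 0.18. Voltage-gated sodium channel genes (Scn) had 6 of 9 above 0 and a median of 0.06. A difference between the families was not tested. For RNA the Kcn median minus that of all genes lay between -0.02 and 0.09, and for TE between -0.0041 and 0.16.

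Kcnj9 had the smallest footprint p. Its normalised footprints were 323 and 314 in vehicle and 421 and 466 after the drug, with RNA at 483 and 455 against 505 and 490. The fitted footprint change was 0.49 ± 0.11 (SE; adjusted p = 0.10). Kcnh3 went from 295 and 305 to 380 and 412 (0.42 ± 0.12, adjusted p = 0.19). In each of them both AZD-8055 mice lay above both vehicle mice, which is no separate support since these genes were picked by their p. Without the footprint library of mouse C, the Kcn genes called higher included Kcnj9, Kcnh3, Kcnk4, Kcna6 and Kcnc1, and Kcnj13 was called lower. That fit rested on mouse D alone for the drug. Without mouse D, Kcnj3 was the only Kcn gene called, in a fit that rested on mouse C alone for the drug. In both fits, genes outside the Kcn family were also called in each direction, and these calls carry little weight. Kcnk4 stood at 167, 236 and 182 normalised footprints in mice A, B and C and at 430 in mouse D.

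The lowest footprint p in the downward direction belonged to Kcnn2 (-0.22 ± 0.14 SE, adjusted p = 0.54), Kcnj2 (-0.27, 0.54) and Kcnip4 (-0.15, 0.57). For RNA, Kcnt1 went from 1929 and 2112 normalised counts to 2344 and 2459 (0.23 ± 0.07 SE, adjusted p = 0.35), followed by Kcnab1 (0.21, 0.40) and Kcnj4 (0.22, 0.44). Kcnd3 (-0.37, 0.44), Kcnh2 (-0.17, 0.58) and Kcnip1 (-0.25, 0.64) had the smallest p among those with lower RNA.

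By subfamily, TE changes had medians between -0.06 (Kcnq, 4 tested) and 0.26 (Kcnd, 3 tested, and Kcnh, 7 tested). All 4 Kcnc genes lay above 0, from 0.10 to 0.26, and 3 of 7 Kcnk genes did. None of the subfamilies held a called gene.

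Because mTOR inhibition is known to act on mRNAs that begin with a run of pyrimidines, the RefSeq start regions of Kcn genes (GRCm38.p6) were searched. The window ran from 10 bases before to 20 bases from the annotated start on the transcript strand, and the motif was a C followed by at least 7 bases that were each C or T. It was found in 24 of 68 windows of ribosomal protein genes (35.3%), 8 of 94 windows of 69 Kcn genes (8.51%), and 8.68% of all 32851 windows. The windows below are those of the 3 Kcn genes with the lowest and the 3 with the highest TE among those with an entry, and of the 3 ribosomal protein genes with an entry whose TE fell the most, with the motif in capitals.
Kcnmb4, chr10:116473504-116473533, minus strand: gagtggggggcgatggcgaagctcagggtg
Kcnh4, chr11:100759759-100759788, minus strand: ctcgaagtgctgcggagcagagcttagaac
Kcnip2, chr19:45816044-45816073, minus strand: ggagaggcggctgggctcaggctcggctct
Kcnh7, chr2:63184268-63184297, minus strand: gcaggccggtgcgaggCCCCCTCCggaagg
Kcna2, chr3:107101557-107101586, plus strand: gcggcgctgcgtggcgcggtgcggcgcggt
Kcnh5, chr12:75177313-75177342, minus strand: ctcggcgcacagtctgggctagagcaggag
Rps12, chr10:23787190-23787219, minus strand: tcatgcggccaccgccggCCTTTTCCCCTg
Rpl13a, chr7:45128726-45128755, minus strand: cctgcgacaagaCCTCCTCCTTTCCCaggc
Rpl37, chr15:5116603-5116632, plus strand: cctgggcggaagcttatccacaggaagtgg

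The Kcn genes whose window held the motif were Kcnab1, Kcnc2, Kcng4, Kcnh7, Kcnk10, Kcnk18 and Kcnn1. Kcnh7, with a run of 8 such bases, had a fitted TE change of -0.02 ± 0.18 (SE; adjusted p = 0.99). Rps12 and Rpl13a, whose windows also held it, had -1.36 ± 0.14 and -1.35 ± 0.13, and Rpl37, whose window did not, had -1.29 ± 0.13. A match or a miss is only a description of these letters in RefSeq, and the run could lie anywhere in the window. The windows of Kcna2, Kcnmb4, Kcnh4 and Kcnip2 lie inside the RefSeq gene span, so the outermost start of these genes was not searched.

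Genes of proteins that bind or anchor potassium channels were listed apart. Of 19 such partner genes 15 had a TE, with a median of 0.54. Of 16 tested, 3 were higher and 3 lower than RNA by over 2-fold, where 13.3% and 17.5% of all genes were. Adam22 and Cntnap2, of the axonal Kcna complex, had a log2 TE of 1.84 and 1.70 and of 1.67 and 1.51, on the side of Kcna2. The hyperpolarisation-activated channel genes, relatives of potassium channels, included low values: Hcn2 was -2.28 and -2.34 and Hcn3 was -1.78 and -1.56. In the pull-down, Amigo1, Lgi1 and Ank3 rose by less than 2-fold over exons (tested changes of 0.51, 0.49 and 0.76). Their mean enrichments were 0.62, 0.61 and 0.87 over exons and 0.15, 0.14 and 0.10 over CDS. Over exons 4 of 18 partner genes were lower by over 2-fold, where 21.8% of all genes were. Among the 4 was Abcc9, the pericyte KATP partner of Kcnj8, at -3.99 and -3.93.

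Other ion channel families overlapped the Kcn genes in range. The 21 Cacn genes with a TE ran from -2.60 to 2.49 with a median of -0.69, and the 9 Scn genes from -1.71 to 1.59 with a median of 0.55. Their median RiboTag enrichments were -0.41 and -0.30 against -0.05 for Kcn genes over exons, and -1.02 and -0.90 against -0.48 over CDS. These differences between families were not tested.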

How the data were processed

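The authors, per the labels and methods, removed ribosomal RNA reads from the footprints with Bowtie2, aligned reads to mm10 with TopHat2 and counted them per gene with HTSeq, and deposited raw whole-number counts over coding sequence (12 libraries) and over exons (8 RNA-Seq libraries). The methods describe the counts as uniquely mapped reads and give HTSeq's interstrict mode for footprints. The strand setting is not given in the sources used here. TE and RiboTag enrichment used DESeq2 1.42.0 size factors. Tests were edgeR 4.0.16 quasi-likelihood tests (R 4.3.3) on the counts with TMM, over genes averaging at least 37 counts per library, with Benjamini-Hochberg adjustment over all genes, a threshold of 0.05, and a 2-fold limit for TE, RiboTag and TE change. Footprint and RNA, or IP and input, of 1 mouse come from the same animal, and their deviations from the group means correlated at 0.24 in mice A and B, 0.20 in C and D and 0.55 in E and F. The fit with the mouse as a block was an alternative. The members, subfamilies, gene lists and named genes were chosen with earlier results of these data known. Named were the highest and lowest gene of each subfamily and the 5 highest and lowest of all in TE and RiboTag enrichment, and the 3 smallest p in each direction after AZD-8055. A ranking by count per length was planned and not made, since coding lengths were not used here. Some genes, and the Kcnb subfamily's medians, are not reported here and are left out of the figures. Other genes are named beside these as relatives or partner subunits, after their values were seen. Alternatives tried were other count limits, no filter, no fold limit, DESeq2, CDS counts, the block and leaving out each library.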

Additional observations from a re-analysis of the deposited data

How the results depend on the processing

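The Kcn median log2 TE relative to all genes was 0.23, became 0.39 with a limit of 200 counts and 0.39 with no count limit, and lay between 0.23 and 0.24 without mouse A or B. The relative median RiboTag enrichment, -0.10, became -0.48 on CDS counts, -0.061 with a limit of 200 counts and -0.061 with no limit, and lay between -0.079 and -0.041 without mouse E or F. With no count limit the relative enrichment of Kcna became 0.043 and of Kcnd 0.024. A limit of 200 counts turned the relative TE of Kcnh to 0.35. Leaving out a mouse gave -0.039 to 0.021 for Kcna enrichment, -0.53 to 0.032 for Kcnt and Kcnu TE, and -0.090 to 0.33 for auxiliary enrichment. After AZD-8055 the relative RNA change, 0.03, ran from -0.019 (without mouse C) to 0.067, and the footprint change, 0.12, from 0.088 to 0.14. The causes were not tested.

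With no fold limit 31 Kcn genes (47.7%) were higher and 23 (35.4%) lower in TE, where 36.6% and 36.9% of all genes were, and 18 (25.4%) were higher in the IP, where 33.7% were. On CDS counts 7 were higher in the IP, where 20.4% of all genes were. With the replicate block, an alternative chosen after seeing the data, it was also 7. Leaving out a library left 1 mouse in its group, so the number of calls in such fits carries little weight. With no filter, 1 Kcn gene (Kcnk4) was higher in footprints after AZD-8055 and 1 (Kcnj13) lower. Of all 19381 genes, 60 were higher and 204 lower in that fit. With the mouse as a block 16 were higher and 9 lower in TE, where 13.4% and 17.3% of all genes were. In the IP 3 were higher and 19 lower, where 11.7% and 22.0% were. After AZD-8055 0 changed in TE, where 0.0593% were higher and 0.305% lower. The block changed 1 call in TE (Kcnj13), 1 in the IP and no other. At this depth 34 genes had too few counts for a TE.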
